A study of Caenorhabditis elegans with 15 samples.

Results

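The messenger RNA of wild-type *Caenorhabditis elegans* raised at 25 °C was compared with that of wild-type animals raised at 20 °C, using the 8 libraries of strain N2 among the 15 young adult libraries of the series (4 libraries at 25 °C and 4 at 20 °C). N2 is the Bristol strain, the standard laboratory wild type, and carries no engineered allele. In both groups the parents had been kept at 20 °C, eggs were released with bleach and hatched overnight without food, and the first-stage larvae were put on plates with HB101 bacteria. Whole animals were then frozen as young adults, about 36 h after plating at 25 °C and 48 h after plating at 20 °C. The remaining 7 libraries came from SX3678, a strain with the *fbxa-215(syb4404)* deletion (3 libraries at 25 °C and 4 at 20 °C), and served the study's question of whether the F-box protein FBXA-215 regulates transcription. Growth temperature, hours after plating and growth batch changed together, so that their shares in any difference cannot be told apart. Nothing in the labels says that the 4 libraries of a group came from separate cultures. If they did not, the p-values measure technical spread.

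Growth at 25 °C is near the upper end of the range in which this animal stays fertile, while a classical heat shock uses a higher temperature for a short time. In the heat shock response, the transcription factor HSF-1 drives the genes of chaperones, proteins that hold or refold other proteins. Cold-blooded animals also adjust the saturation of their membrane lipids to temperature, which in *C. elegans* runs largely through the fatty acid desaturases FAT-5, FAT-6 and FAT-7. The young adult hermaphrodite is the stage at which the gonad, having made its sperm, switches to oocytes and the intestine makes yolk, so the transcript pool of whole animals holds a large share of germline RNA and moves with small differences in age.

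The N2 libraries held between 10842744 and 16150451 counts at 25 °C and between 11458793 and 14298659 at 20 °C, and a count of 3, used as the floor of detection, corresponded to between 0.18 and 0.277 CPM (counts relative to the TMM-scaled library total). Counts were scaled with TMM factors and compared with edgeR's quasi-likelihood test, and standard errors of log2 fold changes (25 °C over 20 °C) were derived from its statistic. Below, a gene "rose" or "fell" where its Benjamini-Hochberg adjusted p-value (FDR) was under 0.05, and was past both thresholds where its change also exceeded 2-fold. The first principal component held 55.9% of the variance and placed the 25 °C libraries on one side and the 20 °C libraries on the other. The 20 °C libraries were not alike. Replicates 1 and 4 (-20.75 and -13.54 on this component) lay apart from replicates 2 and 3 (-32.02 and -31.49). The chi-square per gene of count differences was 5.27 and 6.01 within these pairs and 14.75 to 19.48 between them, against 4.26 to 8.42 at 25 °C. The share of this split in the results below was not tested. Transcripts of adult animals were abundant in all libraries, with vitellogenin genes summing to between 64410 and 75550 CPM at 25 °C and between 80353 and 98206 CPM at 20 °C, whereas of 40 genes switched on in early embryos 35 were too low to test and *med-1* had 0 counts in every library. Of the 5 embryo genes tested, *sdz-6* (2.76 ± 0.39, past both thresholds) and *sdz-27* (0.61 ± 0.08) rose at 25 °C, *pes-1* fell (-0.99 ± 0.34, FDR = 0.028, between 0.051 and 0.087 without N2 20 °C replicate 1 or 2 or 25 °C replicate 1, 3 or 4), and the list summed to between 69.0 and 79.1 CPM at 25 °C against 46.9 to 57.1 CPM at 20 °C. The part of embryo RNA in the results below was not tested.

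Of 13174 genes tested, 741 were past both thresholds (5.62%). At 25 °C, 601 of them were higher (4.56%) and 140 lower (1.06%), and 75 of the higher and 13 of the lower ones changed more than 4-fold. By annotation, 552 of the higher and 133 of the lower genes were protein coding and 48 and 7 were pseudogenes. Without the fold threshold the directions were closer to balance, with 2969 genes that rose (22.5%) and 3260 that fell (24.7%), and a median absolute log2 fold change of 0.47 among them. The counts of gene lists below are to be read against these shares. The 25 °C libraries lay entirely above the 20 °C libraries for 2592 genes (19.7%) and entirely below them for 2988 (22.7%). For any such gene the 2-sided exact permutation test gives p = 0.0286, the smallest possible with 4 libraries against 4. The median log2 fold change over all genes was 0.03, and 0.15 with upper quartile scaling, a shift against which small changes below should be read.

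**Figure D1:**
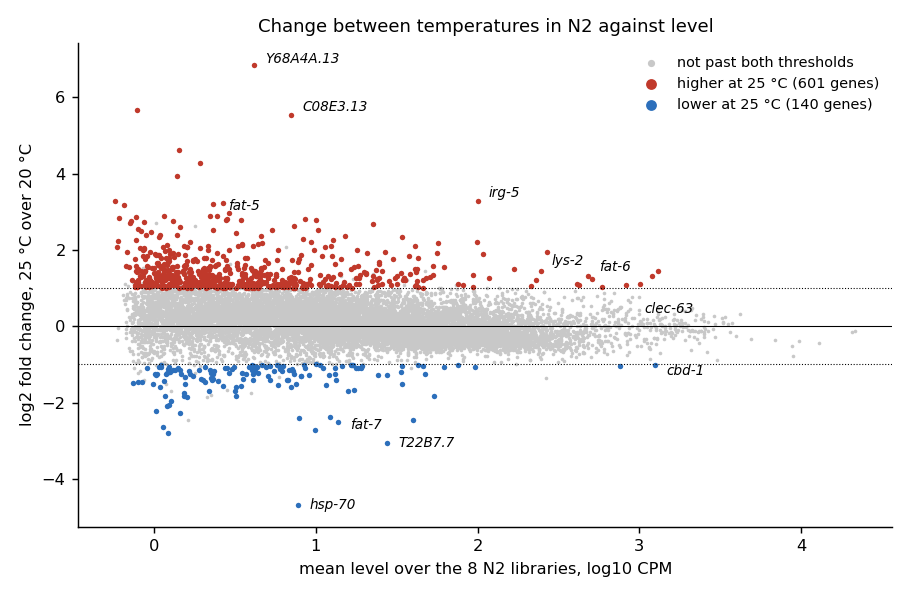
Log2 fold change at 25 °C over 20 °C in N2 (y axis) against the mean level of the 8 libraries in log10 CPM (x axis). Each point is 1 of 13174 genes, dotted lines mark a 2-fold change, red points are the 601 genes past both thresholds and higher at 25 °C, and blue points the 140 that were lower.

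The strongest fall at 25 °C among genes with non-overlapping groups and a mean of at least 50 counts at 20 °C was that of *hsp-70*, an inducible cytosolic Hsp70 on chromosome I (9320325 to 9322519, minus strand). It had 0.54, 0.63, 0.86 and 0.30 CPM in the 25 °C libraries, against 14.1, 15.9, 13.2 and 16.51 CPM in the 20 °C libraries. The groups were far apart, a log2 fold change of -4.68 ± 0.22 (SE, n = 4 and 4, edgeR FDR = 2.2e-09). *hsp-70* overlaps a gene on the opposite strand, and these libraries do not separate strands.

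The small heat shock genes of the *hsp-16* family, whose products hold unfolding proteins, moved the same way. They sit on chromosome V in pairs, *hsp-16.2* (1804334 to 1804957) beside *hsp-16.41* (1805178 to 1805875) and *hsp-16.48* (9088131 to 9088617) beside *hsp-16.1* (9090077 to 9090604). *hsp-16.1* had 4.67, 3.22, 4.46 and 3.43 CPM at 25 °C, against 20.2, 19.8, 18.4 and 24.01 CPM at 20 °C (log2 fold change -2.38 ± 0.15, FDR = 4.7e-08). *hsp-16.48* had 1.92, 2.24, 3.34 and 2.51 CPM at 25 °C, against 13.4, 10.7, 11.3 and 17.6 CPM at 20 °C (log2 fold change -2.42 ± 0.20, FDR = 8.9e-07). In both genes every 25 °C library was below every 20 °C library. The other pair fell less, by 1.57 ± 0.22 for *hsp-16.41* (FDR = 7.6e-05) and by 1.39 ± 0.27 for *hsp-16.2* (FDR = 0.00089) on the log2 scale. Near-identical copies exist for *hsp-16.1* and *hsp-16.48*, so the assignment of reads between copies is uncertain.

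Another pair of inducible Hsp70 genes, *F44E5.4* and *F44E5.5*, could not be read singly, since the quantification gave all reads of a library to one copy or the other. *F44E5.5* alone had 2.1, 3.85, 4.63 and 2.97 CPM at 25 °C, against 0, 21.4, 12.7 and 0 CPM at 20 °C, and did not pass the test (log2 fold change -1.33, FDR = 0.46). Summed over both copies, the counts were 35, 43, 54 and 39 at 25 °C, against 367, 260, 138 and 314 at 20 °C. The sum was thus lower in every 25 °C library, with a log2 fold change of -2.69 ± 0.28 (FDR = 6.7e-05). Of the 6 inducible heat shock genes tested, 5 fell singly and were past both thresholds, and the median log2 fold change of the list was -1.97.

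**Figure D2:**
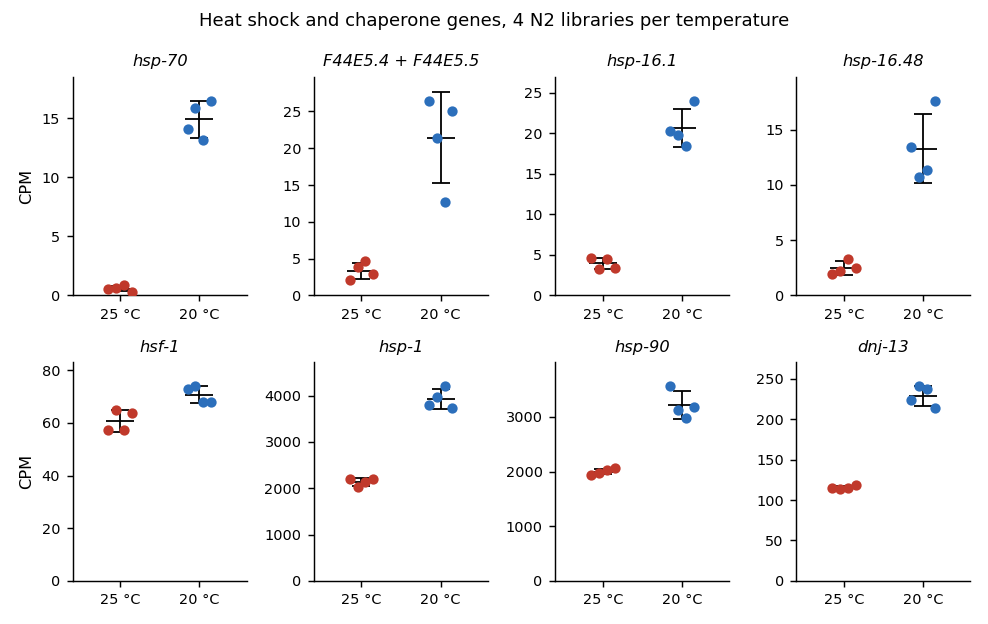
CPM (y axis, from 0) of heat shock and chaperone genes in each N2 library, with 25 °C (red) left of 20 °C (blue). Points are libraries, and bars give the mean and SD of 4. The 25 °C libraries of *hsp-70* lie between 0.30 and 0.86 CPM and those at 20 °C between 13.2 and 16.51 CPM, and in all 8 panels the groups do not overlap.

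The constitutive folding machinery of the cytosol was lower at 25 °C too, by less than 2-fold. Of 29 genes for HSF-1, cytosolic chaperones and their partners, 27 fell and 0 rose, against 24.7% and 22.5% of all genes, and the median was -0.43. *hsp-1*, the constitutive Hsp70, had between 2025 and 2205 CPM in the 25 °C libraries and between 3724 and 4212 CPM in the 20 °C libraries (log2 fold change -0.88 ± 0.06, FDR = 2.2e-07). *hsp-90* had between 1942 and 2058 CPM at 25 °C, against 2979 to 3568 CPM at 20 °C (-0.68 ± 0.07). Expressed per library, the whole list summed to between 8939 and 9412 CPM at 25 °C and between 14027 and 14929 CPM at 20 °C.

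Among its members, *dnj-13*, a DnaJ partner of Hsp70, fell by 0.99 ± 0.06 on the log2 scale, close to the 2-fold threshold. *sti-1*, which links Hsp70 and Hsp90, fell by 0.85 ± 0.06, *hsp-110*, a nucleotide exchange factor, by 0.79 ± 0.06 and *cct-1*, a subunit of the ring-shaped chaperonin, by 0.77 ± 0.06. The members that did not pass were *chn-1*, a chaperone-linked ubiquitin ligase (log2 fold change -0.16, FDR = 0.074, or 0.017 without N2 20 °C replicate 4), and *pfd-1*, a prefoldin subunit (0.07, FDR = 0.77). The transcript of HSF-1 itself was a little lower. *hsf-1* had 57.2, 64.8, 57.2 and 63.7 CPM at 25 °C, against 72.8, 74.1, 67.97 and 67.8 CPM at 20 °C (log2 fold change -0.22 ± 0.07, FDR = 0.019). Its call was lost with library size alone (FDR = 0.13) and with upper quartile scaling (FDR = 0.19), as well as without N2 20 °C replicate 1 or 2 or 25 °C replicate 1 or 3 (FDR between 0.067 and 0.094).

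The proteasome, which degrades tagged proteins, followed the cytosolic chaperones. Of its 33 subunit genes 30 fell and 0 rose, with a median of -0.38, and *rpn-1* of the regulatory particle fell by 0.57 ± 0.06 on the log2 scale (FDR = 8.3e-06). In mitochondria, 5 of 8 folding and stress genes fell. They were *hsp-6*, the mitochondrial Hsp70 (-0.54 ± 0.07), *hsp-60* (-0.38 ± 0.07), the proteases *clpp-1* (-0.50 ± 0.10) and *lonp-1* (-0.50 ± 0.07), and the stress transcription factor *atfs-1* (-0.38 ± 0.10). The homeodomain gene *dve-1* of the same response rose by 0.28 ± 0.11 with overlapping libraries (FDR = 0.042, between 0.051 and 0.13 without N2 20 °C replicate 1, 2 or 4 or 25 °C replicate 1, 3 or 4).

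The endoplasmic reticulum was divided. Of 18 folding and stress genes 8 fell and 1 rose (median -0.16), and the 8 became 5 without N2 20 °C replicate 2 or without 25 °C replicate 2, 3 or 4, and 3 with upper quartile scaling. *hsp-4*, the BiP gene induced by unfolded protein, fell by 0.30 ± 0.07 and *pek-1*, a sensor kinase, by 0.44 ± 0.07, while *pdi-6*, a disulfide isomerase, rose by 0.37 ± 0.07 (FDR = 0.00070). *xbp-1*, the transcription factor of this response, had 355, 334, 327 and 333 CPM at 25 °C, against 278, 333, 337 and 303 CPM at 20 °C, with overlapping groups (log2 fold change 0.11, FDR = 0.20, or 0.023 with library size alone). Of 7 other small heat shock genes tested, *hsp-12.1* (0.84 ± 0.23) and *hsp-12.2* (0.36 ± 0.11, overlapping groups, lost with the offset for exon length at 0.16 and FDR = 0.30) rose, *sip-1* fell (-0.25 ± 0.07, lost with upper quartile scaling at FDR = 0.10), and 4 did not pass (log2 fold changes from -0.25 to 0.66).

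**Figure D3:**
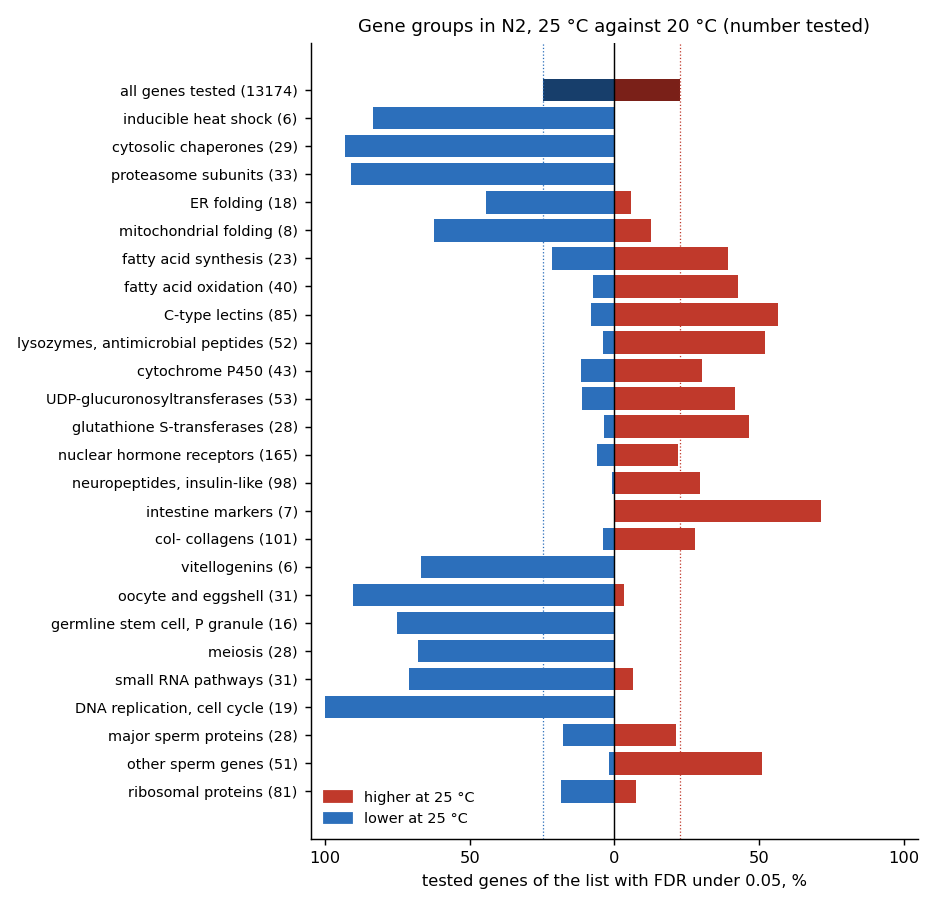
Share of the tested genes of each list that rose (red, right of 0) or fell (blue, left of 0) in N2 at 25 °C against 20 °C, in percent, at an edgeR FDR under 0.05. The number tested stands beside each name, and the top bar and the dotted lines give all 13174 genes (22.5% rose and 24.7% fell). Cytosolic chaperones, proteasome subunits, oocyte and cell cycle genes lie mostly to the left, and C-type lectins, lysozymes and other sperm genes mostly to the right.

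The 3 desaturases that place the first double bond in saturated fatty acids moved in different directions. *fat-7*, a stearoyl-CoA desaturase (chromosome V, 7151353 to 7153146), had 2.46, 4.56, 4.46 and 5.18 CPM at 25 °C, against 22.4, 31.1, 22.1 and 17.8 CPM at 20 °C (log2 fold change -2.51 ± 0.23, FDR = 1.0e-05). Its close relative *fat-6*, with the same substrate (chromosome IV, 11913692 to 11915687), had 760, 746, 734 and 500.5 CPM at 25 °C, against 323, 326, 189.2 and 264 CPM at 20 °C (1.31 ± 0.22, FDR = 0.0026). *fat-5*, which acts on palmitoyl-CoA (chromosome V, 17725004 to 17726818), had 4.49, 5.10, 4.28 and 3.35 CPM at 25 °C, against 0.51, 0.41, 0.74 and 0.64 CPM at 20 °C (2.90 ± 0.27, FDR = 1.7e-06). None of the 3 genes had overlapping groups, and *fat-5* overlaps a gene on the opposite strand.

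The desaturases that act later in the pathway changed less. *fat-2*, which makes linoleic acid, rose by 0.43 ± 0.06 on the log2 scale, *fat-4* by 0.30 ± 0.06 and the omega-3 desaturase *fat-1* by 0.25 ± 0.06, while *fat-3* did not pass (0.15, FDR = 0.080, or 0.027 without N2 20 °C replicate 4 and 0.012 with library size alone). *nhr-80*, a nuclear receptor known to act on desaturase genes, rose by 0.79 ± 0.14 (FDR = 0.00031), and *nhr-49*, another, had a log2 fold change of -0.19 (FDR = 0.11, or 0.023 without N2 20 °C replicate 4). The membrane fluidity sensor genes *paqr-2* (-0.23 ± 0.07) and *iglr-2* (-0.37 ± 0.08) fell, the call of *paqr-2* being lost without N2 20 °C replicate 1 or 25 °C replicate 1 (FDR = 0.065 and 0.058), with library size alone (FDR = 0.11) and with upper quartile scaling (-0.11, FDR = 0.15). *acdh-11*, an acyl-CoA dehydrogenase linked to heat adaptation, had 67.1, 63.8, 67.2 and 65.9 CPM at 25 °C, against 72.1, 48.1, 52.3 and 56.3 CPM at 20 °C (log2 fold change 0.20, FDR = 0.12). The 20 °C replicate 1 was the highest of the 8 libraries, and without it the gene passed (0.36, FDR = 0.0028), as it did with library size alone (FDR = 0.038) and upper quartile scaling (FDR = 0.026).

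In the whole list of 23 fatty acid synthesis and membrane genes, 9 rose and 5 fell, the 5 becoming 3 without N2 20 °C replicate 2 and 2 with library size alone. Fatty acid oxidation genes leaned upward, with 17 of 40 that rose, 3 that fell and a median of 0.25, the 3 becoming 1 without N2 20 °C replicate 1 or 2 or 25 °C replicate 2 or 4. *acox-3*, a peroxisomal acyl-CoA oxidase, had 33.1, 28.8, 32.9 and 34.1 CPM at 25 °C, against 14.2, 11.1, 11.7 and 14.8 CPM at 20 °C (1.31 ± 0.11, FDR = 8.8e-07), and *acox-1.5* rose by 1.63 ± 0.17. *ech-9*, an enoyl-CoA hydratase gene, had 16.8, 14.4, 27.4 and 73.1 CPM at 25 °C, against 6.71, 5.75, 12.9 and 9.73 CPM at 20 °C. Its high 25 °C replicate 4 set much of the change (1.92 ± 0.64, FDR = 0.049), and without any one 20 °C replicate or without 25 °C replicate 3 the FDR was between 0.073 and 0.12.

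**Figure D4:**
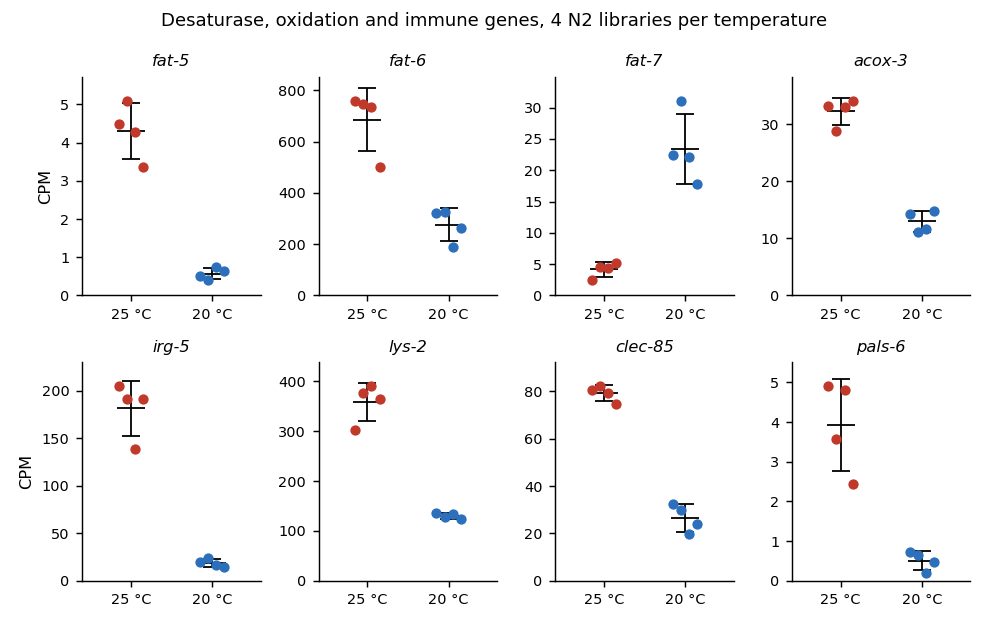
CPM (y axis, from 0) of desaturase, oxidation and immune genes in each N2 library, with 25 °C (red) left of 20 °C (blue). Points are libraries, and bars give the mean and SD of 4. *fat-5* and *fat-6* are higher and *fat-7* lower at 25 °C, and *irg-5* lies between 139 and 205 CPM at 25 °C against 14.04 to 23.7 CPM at 20 °C.

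Genes of innate immunity were prominent among the higher ones. *irg-5*, an infection response gene, had 205, 191, 139 and 191 CPM at 25 °C, against 19.9, 23.7, 16.7 and 14.04 CPM at 20 °C (log2 fold change 3.29 ± 0.18, FDR = 4.4e-06). *lys-2*, a lysozyme gene, had 303, 377, 391 and 363 CPM at 25 °C, against 136, 128, 135 and 123 CPM at 20 °C (1.46 ± 0.08, FDR = 1.1e-08). *lys-1* rose by 1.09 ± 0.07 on the log2 scale, and *lys-3*, more variable at 25 °C (5.10 to 23.2 CPM, against 1.595 to 2.81 CPM at 20 °C), by 2.62 ± 0.56. Of 52 lysozyme and antimicrobial peptide genes, 27 rose (51.9%) and 2 fell (3.85%), against 22.5% and 24.7% of all genes. Of the 52, 12 were past both thresholds and higher, against 4.56% of all genes, and 0 lower. The 12 included the fungus-induced relatives *fipr-5* (1.499 ± 0.27) and *fipr-11* (1.47 ± 0.23). The median of the list was 0.58.

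C-type lectins, secreted sugar-binding proteins of which many respond to microbes, moved in the same direction. Of 85 tested, 48 rose (56.5%, against 22.5% of all genes) and 7 fell (8.24%, against 24.7%). Past both thresholds were 18, all higher, against 4.56% of all genes, and the median was 0.54. *clec-209* had 733, 703, 683 and 736 CPM at 25 °C, against 315, 312, 328 and 260 CPM at 20 °C (1.23 ± 0.07, FDR = 3.5e-08). *clec-85* had 80.5, 82.3, 79.4 and 74.6 CPM at 25 °C, against 32.6, 29.8, 19.8 and 24.01 CPM at 20 °C (1.57 ± 0.12), and *clec-52* rose by 2.15 ± 0.20, *clec-47* by 1.76 ± 0.50 (FDR = 0.025, between 0.061 and 0.076 without N2 20 °C replicate 1, 2 or 3) and *clec-26* by 1.51 ± 0.26. The neighbours *clec-62* (1.05 ± 0.09, or 0.97 without N2 20 °C replicate 3) and *clec-63* (1.096 ± 0.06) on chromosome II rose by similar amounts. *pals-6*, of a family induced by intracellular pathogens, had 4.91, 3.58, 4.80 and 2.44 CPM at 25 °C, against 0.72, 0.66, 0.18 and 0.48 CPM at 20 °C (2.89 ± 0.34), and *pals-23* (1.17 ± 0.18) and *pals-24* (1.23 ± 0.15) also rose. In all 4 of 13 *pals* genes rose, a share of 30.8% against 22.5% of all genes.

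More detoxification genes rose than fell. Of 53 UDP-glucuronosyltransferase genes 22 rose (41.5%) and 6 fell (11.3%), against 22.5% and 24.7% of all genes. Of 43 cytochrome P450 genes 13 rose (30.2%, nearer the share of all genes) and 5 fell (11.6%). The 5 became 3 without N2 20 °C replicate 2 or 25 °C replicate 3. Of 28 glutathione S-transferase genes 13 rose (46.4%) and 1 fell (*gst-1*, -0.63 ± 0.07). *cyp-37B1* rose by 2.21 ± 0.17 on the log2 scale, *cyp-34A2* by 1.84 ± 0.27, *cyp-32B1* by 1.37 ± 0.21, *ugt-52* by 1.99 ± 0.24, *ugt-43* by 1.46 ± 0.31, *ugt-6* by 1.20 ± 0.16, *gst-29* by 1.21 ± 0.23 and *gst-38* by 1.18 ± 0.17, while *ugt-41* fell by 1.28 ± 0.11. *gst-22* passed narrowly with overlapping groups (1.08 ± 0.37, FDR = 0.043, between 0.072 and 0.11 without N2 20 °C replicate 2, 3 or 4 or 25 °C replicate 3 or 4). The metallothioneins *mtl-1* (2.38 ± 0.35) and *mtl-2* (1.19 ± 0.24), which bind metals, rose. *hmit-1.1*, a myo-inositol transporter gene of osmotic stress, had 14.7, 16.02, 21.7 and 7.92 CPM at 25 °C, against 1.30, 1.56, 3.14 and 2.63 CPM at 20 °C (2.82 ± 0.37). Of 11 genes of trehalose and glycerol metabolism, which make and break compatible solutes, *gob-1* (0.35 ± 0.07), *tre-3* (0.62 ± 0.11) and *tre-4* (0.37 ± 0.14) rose and *tre-1* fell (-0.28 ± 0.07, lost with upper quartile scaling at FDR = 0.052), and 7 did not pass (from -0.04 to 0.26). The call of *tre-4* (FDR = 0.041) was lost without N2 20 °C replicate 1 or 3 or any one 25 °C replicate (FDR between 0.064 and 0.10).

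Many of these immune and detoxification genes are expressed in the intestine, and most of a short list of intestinal markers were higher as well. Of 7 such markers 5 rose and 0 fell (median 0.63), namely the GATA factors *elt-2* (0.63 ± 0.17) and *elt-7* (0.78 ± 0.14), the esterase *ges-1* (0.70 ± 0.11), *ifb-2* (0.75 ± 0.09) and *act-5* (0.40 ± 0.07). The summed level of the 7 was between 3739 and 4176 CPM at 25 °C and between 3076 and 3781 CPM at 20 °C, so the ranges overlapped. The yolk genes, which the intestine also transcribes and which are far more abundant, went the other way (of 6, 0 rose and 4 fell). In whole animals, fewer cells of a type and less RNA per cell cannot be told apart, and the part of the intestine's share in the rises above was not tested. Of 12 neuron markers 5 rose and 0 fell (median 0.32), and of 4 pharynx markers 1 rose and 0 fell (4 rose without N2 25 °C replicate 3). The pharynx riser was *tnt-4*, a troponin T gene, with overlapping groups (0.34 ± 0.11, FDR = 0.024, between 0.054 and 0.078 without N2 20 °C replicate 2 or 3 or 25 °C replicate 2 or 4). Of 4 hypodermis markers 0 rose and 1 fell (median -0.03), the transcription factor *lin-26* (-0.31 ± 0.08), and the other 3 had log2 fold changes from -0.08 to 0.54. Of 23 muscle genes 6 rose (26.1%, against 22.5% of all genes) and 1 fell (the actin *act-2*, -0.69 ± 0.08). The 6 became 10 without N2 20 °C replicate 2 and 11 without 25 °C replicate 3. The 5 somatic gonad markers had log2 fold changes from -0.44 to 0.25 and none passed.

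Transcripts of the oocyte line were lower at 25 °C. Of 31 oocyte and eggshell genes 28 fell and 1 rose, with a median of -0.50. *cbd-1*, a chitin-binding protein of the eggshell, had 841, 725, 739 and 978 CPM at 25 °C, against 1611, 1826, 1855 and 1347 CPM at 20 °C (-1.02 ± 0.12, FDR = 6.7e-05). *cpg-1*, an eggshell proteoglycan, had 506, 425, 447 and 609 CPM at 25 °C, against 962, 1132, 1181 and 829 CPM at 20 °C (-1.05 ± 0.14, FDR = 0.00033). Both lay at the 2-fold threshold and dropped below it, still falling, when N2 20 °C replicate 2 or 3 or 25 °C replicate 2 or 3 was left out (log2 fold changes of -0.95 to -0.98). The oocyte maturation factors *oma-1* (-0.60 ± 0.10) and *oma-2* (-0.95 ± 0.09), the yolk receptor *rme-2* (-0.50 ± 0.08) and the maternal RNA-binding gene *spn-4* (-0.80 ± 0.11) fell, and the single riser was *perm-2* of the eggshell (0.25 ± 0.09, FDR = 0.041, between 0.082 and 0.11 without N2 20 °C replicate 2 or 3 or 25 °C replicate 1, 2 or 4).

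Other germline groups moved in the same direction. All 19 DNA replication and cell cycle genes fell (median -0.37), among them *mcm-3* (-0.56 ± 0.06) and the ribonucleotide reductase *rnr-1* (-0.80 ± 0.08). Of 16 germline stem cell and P granule genes 12 fell and 0 rose, with *gld-1*, a translational repressor, at 865, 814, 823 and 873 CPM at 25 °C, against 1101, 1332, 1391 and 1020 CPM at 20 °C (-0.52 ± 0.09), and *glp-1*, the Notch receptor of the stem cells, at -0.41 ± 0.07 and its target *sygl-1* at -0.74 ± 0.08. Of 28 meiotic genes 19 fell and 0 rose (median -0.32), for example *zhp-3* of crossover formation (-0.73 ± 0.10), and the 19 became 12 with upper quartile scaling. The yolk genes are transcribed in the intestine and not in the germline. Of these, *vit-1*, *vit-3*, *vit-4* and *vit-5* fell by 0.37 to 0.77 on the log2 scale, while *vit-2* (-0.14, FDR = 0.15) and *vit-6* (-0.13, FDR = 0.20) did not pass.

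Sperm transcripts did not follow the oocyte genes. Of 51 sperm genes outside the major sperm protein family 26 rose and 1 fell (*spe-39*, -0.38 ± 0.09), with a median of 0.62 and a sum of 1404 to 1698 CPM at 25 °C against 964 to 1327 CPM at 20 °C. *nspd-10*, a short nematode-specific peptide gene, had 17.6, 38.02, 32.9 and 27.03 CPM at 25 °C, against 12.8, 6.33, 5.81 and 17.9 CPM at 20 °C, and its overlapping groups passed narrowly (1.41 ± 0.43, FDR = 0.035, between 0.063 and 0.085 without N2 20 °C replicate 1, 2 or 3 or 25 °C replicate 2, 3 or 4). The 28 major sperm protein genes, a family of near-identical copies among which reads are hard to place, were split, with 6 that rose and 5 that fell, from *msp-65* (-0.87 ± 0.08) to *msp-36* (0.46 ± 0.09). The 6 became 12 without N2 20 °C replicate 4, 3 without 20 °C replicate 2 and 2 without 25 °C replicate 2.

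Of 31 genes of small RNA pathways, 22 fell and 2 rose (median -0.30). The 22 became 15 with library size alone or upper quartile scaling, and 17 without N2 20 °C replicate 2 or 25 °C replicate 3. The risers were *alg-3* (0.34 ± 0.09) and *alg-4* (0.54 ± 0.09), which encode Argonautes of the male germline. *alg-4* had 44.8, 49.3, 46.5 and 46.2 CPM at 25 °C, against 32.9, 28.6, 30.3 and 36.7 CPM at 20 °C. The microRNA Argonaute *alg-2* fell by 0.85 ± 0.09 and the RNA-dependent RNA polymerase *rrf-3*, a gene of the same pathway as *alg-3* and *alg-4*, by 0.21 ± 0.07 (FDR = 0.015, lost with library size alone at 0.12 and without N2 20 °C replicate 1 or 2 or 25 °C replicate 3). *prg-1*, the Piwi protein that binds piRNAs, had 215.1, 225, 219 and 221 CPM at 25 °C, against 228, 213, 217 and 208 CPM at 20 °C (log2 fold change 0.02, FDR = 0.79).

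Genes of developmental timing and of the cuticle were examined because the 2 groups were collected at different hours. Of 12 heterochronic genes, which time larval stages, 0 rose and 3 fell (median -0.15), and the list summed to between 511 and 556 CPM at 25 °C against 651 to 804 CPM at 20 °C. The RNA-binding regulators *lin-41* (-0.73 ± 0.08) and *nhl-2* (-0.40 ± 0.08) fell with non-overlapping groups. The transcription factor *blmp-1* fell with overlapping groups (-0.31 ± 0.12, FDR = 0.047, between 0.058 and 0.14 without N2 20 °C replicate 1, 2 or 4 or 25 °C replicate 1, 3 or 4, and 0.16 with library size alone). *lin-29*, a switch gene of the larva-to-adult transition, had a log2 fold change of 0.02 (FDR = 0.95), and the range over the 9 that did not pass was -0.66 to 0.37. The adult collagen *col-19* had 2199, 2507, 2580 and 2483 CPM at 25 °C, against 2103, 1266, 1575 and 2107 CPM at 20 °C (0.47 ± 0.16, FDR = 0.038, between 0.074 and 0.13 without N2 20 °C replicate 3 or 25 °C replicate 2, 3 or 4), and *col-7* (0.69, FDR = 0.19) and *col-62* (0.73, FDR = 0.17) did not pass. Of 14 molting genes 0 rose and 1 fell, the nuclear receptor *nhr-23* (-0.27 ± 0.09, FDR = 0.027, lost with library size alone at 0.11 and, between 0.054 and 0.13, without N2 20 °C replicate 2 or 3 or 25 °C replicate 2 or 3). Of 101 *col* genes 28 rose (27.7%, against 22.5% of all genes) and 4 fell, the 28 becoming 18 without N2 25 °C replicate 2. Those past both thresholds included *col-147* (1.09 ± 0.20), *col-150* (1.26 ± 0.25), *col-186* (1.03 ± 0.24) and *col-110* (-1.16 ± 0.19). Without N2 25 °C replicate 3, *col-147* (0.96), *col-186* (0.82) and *col-110* (-0.98) dropped below 2-fold, still passing the test, as did *col-147* without 20 °C replicate 2 (0.99) and *col-186* without 20 °C replicate 2 (0.96) or 3 (0.91). The cuticlin-like gene *cutl-24* (1.38 ± 0.22) rose as well, one of 2 of 12 cuticlin genes that did, against 1 that fell.

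Libraries within a temperature differed widely in body collagens. The summed level of 15 body shape and blister collagen genes was 93.2, 126, 139 and 40.1 CPM in the 25 °C libraries, against 92.0, 45.02, 83.4 and 192.3 CPM in the 20 °C libraries. *dpy-13*, a body shape collagen, had 7.25, 18.8, 19.7 and 0.23 CPM at 25 °C, against 10.3, 0.16, 8.02 and 28.2 CPM at 20 °C (log2 fold change -0.05 ± 1.22), and *dpy-5* (-0.25 ± 1.25) and *col-73* (-0.03 ± 1.26) showed the same 2 low libraries. Thus N2 25 °C replicate 4 and 20 °C replicate 2 were low within their groups, and the 3 genes did not pass the test. Of the whole list 1 gene rose, *dpy-2* (0.99 ± 0.36, FDR = 0.036, between 0.056 and 0.15 without N2 20 °C replicate 1, 2 or 3 or 25 °C replicate 1, 2 or 3), and 0 fell, with a median of -0.04. Without N2 20 °C replicate 4 the list had 3 genes that rose, 2 of them past both thresholds, and a median of 0.86. With both of these libraries left out, an alternative chosen after seeing the data, 739 genes were past both thresholds, 599 higher and 140 lower.

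Most genes of temperature sensing were too low to test in whole animals. Of 11 genes of the AFD thermosensory neurons 3 could be tested and 0 passed, and *ttx-1*, *ceh-14* and *cmk-1* had log2 fold changes between -0.18 and 0.24. Among 98 neuropeptide and insulin-like genes 29 rose and 1 fell (*nlp-31*, -0.85 ± 0.19), the 29 becoming 19 without N2 25 °C replicate 2, and *ins-7*, an insulin-like peptide of the intestine and neurons, had 17.4, 18.6, 25.4 and 18.5 CPM at 25 °C, against 4.69, 5.26, 6.36 and 2.47 CPM at 20 °C (2.09 ± 0.23, FDR = 3.4e-05). The insulin receptor gene *daf-2* fell by 0.28 ± 0.07 and its target transcription factor *daf-16* by 0.34 ± 0.08.

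Ribosomal and nuclear respiratory genes had medians near 0. Of 81 cytosolic ribosomal protein genes 6 rose and 15 fell (median -0.02), with *rpl-42* past both thresholds (1.03 ± 0.22, or 0.86 and 0.91 without N2 20 °C replicate 3 or 25 °C replicate 3), and the 6 varied between 2 without N2 25 °C replicate 2 and 17 without 20 °C replicate 4. Of 36 nuclear genes of the respiratory chain 9 rose and 4 fell (median 0.03, the 9 becoming 5 without N2 25 °C replicate 2). *cox-17*, a copper chaperone of cytochrome oxidase, was past both thresholds (1.05 ± 0.34, FDR = 0.027), which was lost without N2 20 °C replicate 2 or 25 °C replicate 2 or 4 (FDR between 0.054 and 0.069). Of 12 genes of the mitochondrial genome 4 rose and 0 fell, the other 8 ranging from -1.36 to 1.39, with a sum of 12912 to 13812 CPM at 25 °C against 10727 to 12720 CPM at 20 °C. Of 165 nuclear hormone receptor genes 36 rose (21.8%, near the 22.5% of all genes) and 10 fell (6.06%, against 24.7%). The median was 0.18, and the 10 became 6 without N2 20 °C replicate 2 or 25 °C replicate 2. Among them *nhr-114* (1.04 ± 0.23, overlapping groups, 0.89 to 0.99 without N2 20 °C replicate 3 or 25 °C replicate 1 or 2) and *nhr-2* (-1.06 ± 0.25, -0.86 to -0.97 without 20 °C replicate 2 or 25 °C replicate 2 or 3) lay at the 2-fold threshold. Of 37 hedgehog-related and patched-related genes 8 rose (21.6%, also near the share of all genes) and 2 fell (5.41%), and *grd-10* (1.18 ± 0.18) was past both thresholds.

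Histone genes, whose transcripts mostly lack the tail that these libraries select and whose copies are near-identical, changed in both directions. Of 31 tested 7 rose (22.6%) and 8 fell (25.8%), close to the 22.5% and 24.7% of all genes. Their log2 fold changes ranged from -1.46 to 1.63. Past both thresholds were *his-45* (-1.46 ± 0.27), *his-67* (-1.37 ± 0.32) and *his-32* (-1.25 ± 0.33), which were lower, and *his-12* (1.26 ± 0.29) and *his-14* (1.63 ± 0.54), which were higher. *his-14* had 1.498, 2.77, 2.83 and 7.995 CPM at 25 °C, against 0.87, 1.56, 1.57 and 0.88 CPM at 20 °C, with 25 °C replicate 4 the highest. Without that library the log2 fold changes were 0.88 for *his-12* and 0.94 for *his-14*. The call of *his-14* (FDR = 0.033) was also lost without any one 20 °C replicate (FDR between 0.062 and 0.093).

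The gene mutated in the rest of the series, *fbxa-215*, had 130, 122, 129 and 141 CPM in N2 at 25 °C, against 166, 167, 145 and 159 CPM in N2 at 20 °C. Its groups did not overlap, with a log2 fold change of -0.29 ± 0.07 (FDR = 0.0032). The related germline genes *fbxa-210* (-0.14, FDR = 0.17) and *fbxa-192* (-0.02, FDR = 0.89) did not pass. Of 88 *fbxa* and *fbxb* F-box genes, 22 rose (25.0%) and 10 fell (11.4%), against 22.5% and 24.7% of all genes. The 10 became 6 without N2 20 °C replicate 1 or 25 °C replicate 2 or 3. Past both thresholds were 14 higher and 3 lower, against 4.56% and 1.06% of all genes. They included *fbxa-182* (1.68 ± 0.16), *fbxa-24* (1.36 ± 0.26), *fbxa-189* (1.17 ± 0.15) and *fbxa-170* (-1.40 ± 0.20). *metl-13*, a methyltransferase gene, fell by 0.55 ± 0.07, and the translation factor *eif-2D* did not pass (-0.17, FDR = 0.088).

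Several of the largest changes lay in genes known only by a sequence name. *Y68A4A.13* on chromosome V had 125, 90, 110 and 102 counts at 25 °C, against 2, 1, 0 and 0 counts at 20 °C, a ratio of 133 with a 95% counting interval of 45.4 to 650 (exact binomial, counting error only). *C08E3.13* on chromosome II had 16.415, 17.4, 12.7 and 8.22 CPM at 25 °C, against 0.22, 0.41, 0.18 and 0.32 CPM at 20 °C (5.55 ± 0.32). *Y37H2A.14* (3.23 ± 0.32), the pseudogene WBGene00017529 (3.21 ± 0.28), *F15D4.5* (2.97 ± 0.25) and *F49F1.5* (2.81 ± 0.31) were, with *irg-5*, *fat-5*, *pals-6* and *hmit-1.1*, the other members of the 10 largest rises among genes with non-overlapping groups and a mean of at least 50 counts at 25 °C. The smallest p-values among rises belonged to *hpo-15* (1.89 ± 0.08, FDR = 1.7e-09), *sysm-1* (2.0998 ± 0.10) and *Y38E10A.14* (2.68 ± 0.13).

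Among falls, the heat shock genes and *fat-7* were joined by *T22B7.7* on chromosome X, with 5.39, 7.43, 5.23 and 5.33 CPM at 25 °C, against 34.4, 29.9, 39.8 and 91.6 CPM at 20 °C (-3.07 ± 0.45, FDR = 0.0021). *dhs-26*, a short-chain dehydrogenase gene (-2.73 ± 0.55), *Y94H6A.10* (-2.45 ± 0.10, the smallest p of all genes), *C35E7.5* (-1.84 ± 0.24), *C30G12.2* (-1.83 ± 0.38) and the forkhead gene *fkh-3* (-1.70 ± 0.24) were the others. *tra-3*, a calpain protease of sex determination, was among the 3 smallest p-values, with 17.9, 16.46, 18.5 and 17.7 CPM at 25 °C, against 49.6, 56.0, 48.7 and 46.8 CPM at 20 °C (-1.51 ± 0.08).

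The *fbxa-215* mutants were raised at both temperatures in the same way, so their libraries give a second set of values that shares no library with N2. Of 562 genes higher in N2 and tested in both strains, 155 were also past both thresholds and higher in mutants (27.6% of the N2 genes and 62.8% of the 247 mutant genes), where 1.89% of all genes were. Of 134 genes lower in N2, 30 were lower in mutants (22.4% and 49.2% of the 61 mutant genes), where 0.468% of all genes were, and 0 genes were past both thresholds in opposite directions. The median log2 fold change of the N2-higher genes was 1.27 in N2 and 0.65 in mutants, and that of the N2-lower genes -1.25 in N2 and -0.61 in mutants. These genes were chosen on their values in N2, so the smaller medians in mutants are a description.

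**Figure D5:**
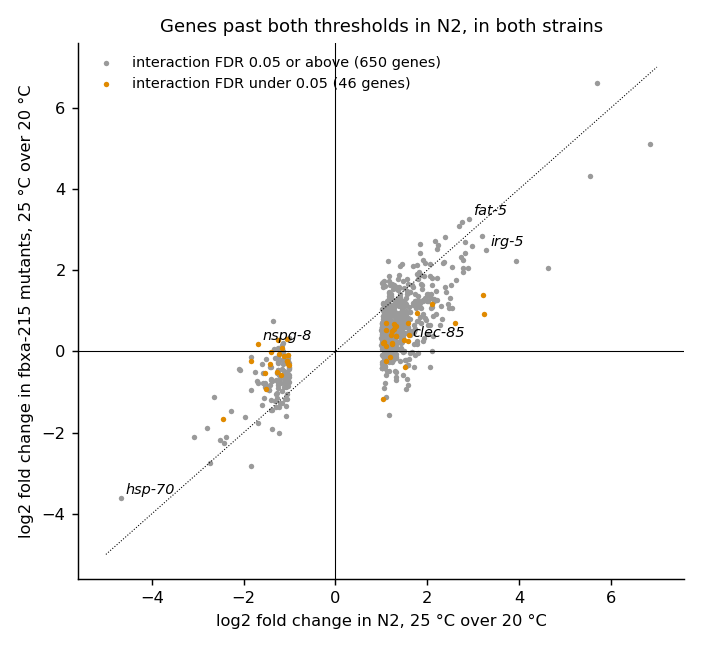
Log2 fold change at 25 °C over 20 °C in *fbxa-215* mutants (y axis) against that in N2 (x axis) for the genes past both thresholds in N2 and tested in both strains. Orange points are the genes with an interaction FDR under 0.05, the dotted line marks equal change, and the empty band between -1 and 1 on the x axis comes from the threshold. Most points lie on the same side of 0 in both strains, 489 of 562 on the right and 123 of 134 on the left.

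Heat shock genes fell in both strains, with *hsp-70* at -4.68 in N2 and -3.61 in mutants, and the *F44E5.4* and *F44E5.5* sum at -2.69 in N2 and -2.73 in mutants (FDR = 0.0086). The desaturase genes *fat-5* (2.90 in N2 and 3.26 in mutants) and *fat-7* (-2.51 in N2 and -2.19 in mutants) also kept their direction. The median of the cytosolic chaperones was -0.43 in N2 and -0.44 in mutants, that of the oocyte and eggshell genes -0.50 in N2 and -0.22 in mutants, and that of the other sperm genes 0.62 in N2 and 0.02 in mutants. A difference between strains was tested gene by gene. The interaction passed an FDR of 0.05 for 205 of 14000 genes (1.46%), but the count was unstable, between 12 without mutant 25 °C replicate 3 and 1604 without mutant 20 °C replicate 4, and moved by more than 1.5 times without 14 of the 15 libraries.

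Of the 24 interactions among the genes named here, 5 kept an FDR under 0.05 in all 15 fits that left out 1 library, with a highest FDR of 0.031, while the others did so in 4 to 14 fits. The 5 were named for the smallest interaction p-values among genes past both thresholds in N2. The 15 fits share most libraries, so they are no separate check on this choice. Of these 5, *nspg-8* had 7.07, 6.71, 8.74 and 7.31 CPM in N2 at 25 °C, against 25.7, 22.02, 21.9 and 26.8 CPM in N2 at 20 °C (log2 fold change -1.69 ± 0.12), and 0.18 in mutants, a difference of -1.89 ± 0.18 (FDR = 5.8e-05). *C18H9.6* (1.33 in N2 and 0.38 in mutants), *clec-85* (1.57 in N2 and 0.25 in mutants), *clec-209* (1.23 in N2 and 0.50 in mutants) and *clec-62* (1.05 in N2 and 0.24 in mutants) rose more in N2.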

How the data were processed

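Polyadenylated RNA of whole young adults was sequenced by the authors from non-directional libraries. The authors trimmed reads (Trimmomatic 0.39) and quantified them with salmon (1.5.1), which gave the estimated count of each gene that they deposited. The deposited tables, one per temperature, hold such estimated counts, not normalized, of 21882 genes (21714 in the Ensembl annotation of WBcel235, the build the study names, and 19626 with a symbol in the name table). The tables also deposited by the authors with their own DESeq2 comparison of strains (fold changes, adjusted p-values, mean counts and log2 values) were not used. No column was left without a sample (0 columns).

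The 2 tables were joined on gene ID, and counts were rounded to whole numbers. edgeR (4.0.16, R 4.3.3) was run on the 8 N2 libraries with filterByExpr (minimum count 10, total 15), TMM and the robust quasi-likelihood F-test. Genes past both thresholds had an FDR (Benjamini-Hochberg) below 0.05 together with a change of more than 1 in either direction on the log2 scale, the limits of the study. Standard errors are the log2 fold change over the square root of F and are approximate. CPM use TMM-scaled totals. The mutants were fitted likewise, and the interaction over 15 libraries. Single genes were compared with 2-sided exact permutation tests of log2(CPM + 1). On simulated data for the N2 comparison, over 13002 genes, edgeR called 100% of 100 genes changed by a log2 fold change of 1.5. It also called 100% of 100 changed by 2.5, with 1 unchanged gene called. The interaction test called 95.5% of 200 genes changed by 2 on the log2 scale and 11 unchanged genes, over 13778 genes. Genes of low level were not among those changed, so recovery near the floor was not examined.

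The comparison, the gene lists and the rule for named genes were chosen with earlier results of these data known. The rule takes the 10 largest rises and falls among genes past both thresholds with no overlap whose higher group averaged 50 counts or more, the 3 smallest p-values per direction, up to 4 such genes per list and direction, members of lists of at most 12 genes (given singly where they passed and otherwise mostly as a range, except the mitochondrial genome, where most genes lack a symbol), a fixed set of genes, and 5 interactions. Of the 179 named genes, 53 fall outside it and were chosen after their values were seen, namely *acdh-11*, *act-2*, *alg-2*, *cct-1*, *chn-1*, *clec-63*, *col-73*, *dnj-13*, *dpy-13*, *dpy-2*, *dpy-5*, *fat-1*, *fat-2*, *fat-3*, *fat-4*, *gst-1*, *his-14*, *his-32*, *his-45*, *his-67*, *hsp-1*, *hsp-110*, *hsp-4*, *hsp-90*, *iglr-2*, *lys-1*, *mcm-3*, *msp-36*, *msp-65*, *mtl-1*, *nhr-23*, *nhr-49*, *nhr-80*, *nlp-31*, *oma-1*, *oma-2*, *paqr-2*, *pdi-6*, *pek-1*, *perm-2*, *pes-1*, *pfd-1*, *rme-2*, *rnr-1*, *rpn-1*, *sdz-27*, *sdz-6*, *sex-1*, *spe-39*, *spn-4*, *sti-1*, *sygl-1* and *zhp-3*. The mitochondrial genome list was matched by chromosome, since its symbols did not match. The alternatives were RLE, library size, upper quartile, TMM without *msp*, *vit* and *col* genes, DESeq2 (1.42.0), no filter, a floor of 10 counts in each library, 1 fit over 15 libraries, a replicate block, glmTreat, no fold threshold and leaving out each library, and, chosen after seeing the data, 2 libraries left out together, *F44E5.4* and *F44E5.5* summed, and an offset for exon length. Sequences were not used here.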

Additional observations from a re-analysis of the deposited data

Results flagged for a closer look

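Among the 179 named genes and the library totals, 360 sets of 4 libraries were examined for a single library far from the other 3, and 14 were found, where chance alone gives about 1 in 20. At 25 °C, replicate 1 stood apart for *hsp-4* (234 CPM, the others 225 to 226), *lonp-1* (102 CPM, the others 109 to 110), *cyp-32B1* (9.465 CPM, the others 6.319 to 6.71), *gob-1* (84.83 CPM, the others 76.95 to 78.02) and *grd-10* (33.01 CPM, the others 41.04 to 42.67). Replicate 2 stood apart for *T22B7.7* (7.43 CPM, the others 5.23 to 5.39). Replicate 3 stood apart for *ceh-14* (5.31 CPM, the others 3.77 to 3.94), *col-110* (2.74 CPM, the others 4.55 to 4.95), *ttx-1* (2.14 CPM, the others 3.23 to 3.40) and *ugt-43* (5.227 CPM, the others 6.396 to 6.621). Replicate 4 stood apart for *fat-6* (500.5 CPM, the others 734 to 760) and *sti-1* (116 CPM, the others 108 to 109). At 20 °C, replicate 3 stood apart for *ttx-1* (4.70 CPM, the others 2.96 to 3.20) and replicate 4 for *cct-1* (441 CPM, the others 484 to 492).

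For 24 of the named genes the change with temperature differed between N2 and the *fbxa-215* mutants (edgeR interaction, FDR under 0.05 over 14000 genes), and each difference kept its sign in all 15 fits that left out 1 library. The rise was larger in N2, by a difference in log2 fold change of 2.30 for *Y37H2A.14*, 1.83 for WBGene00017529, 1.31 for *clec-85*, 1.31 for *gst-38*, 0.94 for *C18H9.6*, 0.92 for *sysm-1*, 0.80 for *clec-62*, 0.72 for *clec-209*, 0.69 for *acox-3* and 0.57 for *clec-63*. It was 0.87 for *msp-36* (0.46 in N2, -0.42 in mutants), 0.54 for *alg-4* (0.54 in N2, -0.01 in mutants) and 0.38 for *fat-4* (0.30 in N2, -0.09 in mutants). The difference was negative for genes lower in N2, at -1.89 for *nspg-8*, -1.62 for *C35E7.5*, -1.11 for *sex-1*, -0.83 for *cpg-1*, -0.79 for *Y94H6A.10*, -0.69 for *cbd-1*, -0.61 for *oma-2*, -0.59 for *tra-3*, -0.47 for *act-2*, -0.45 for *dnj-13* and -0.36 for *hsp-4*. The FDR stayed under 0.05 in all 15 such fits for *nspg-8*, *C18H9.6*, *clec-85*, *clec-209* and *clec-62*, in 14 for *clec-63*, and in between 4 and 11 for the other 18. With the replicate block, only *nspg-8*, *C18H9.6*, *clec-85*, *clec-209*, *clec-62*, *clec-63* and *gst-38* kept an FDR under 0.05.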

How the results depend on the processing

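Of 3739 values recomputed for the 179 named genes, 3452 kept their side of an FDR of 0.05, 274 no longer passed and 13 newly passed. Some genes that did not pass changed sign between settings. For example, *dpy-13* ranged from -0.44 to 0.86 and *pfd-1* from -0.14 to 0.22. Of 833 recomputed list medians, 697 moved by less than the spread between libraries and 136 by more. The number of genes past both thresholds in N2 was 741, and it was 445 with a floor of 10 counts in each library (355 higher and 90 lower), 85 with glmTreat (73 higher and 12 lower) and 6229 without a fold threshold (2969 higher and 3260 lower). The other settings with all libraries gave between 659 and 1050. Leaving out 1 library gave between 700 and 965 genes, with between 555 and 804 higher. The interaction was called for 205 genes, for 338 with that floor, for 20 with the replicate block, and for between 12 and 1604 without 1 library. The replicate numbers do not pair the libraries, since the correlation of same-numbered deviations was between -0.36 and -0.03, none of the libraries correlated best with its own number, and with the replicate block 723 genes were past both thresholds in N2 (582 higher and 141 lower).

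Genes near 3 counts per library and members of near-identical families are the least certain, and libraries without strand leave overlapping genes open to each other's reads. Hours after plating, growth batch and temperature cannot be told apart here. Under upper quartile scaling 811 genes were past both thresholds and higher and 96 lower (89.4% higher, against 81.1%), and with the offset for exon length 72.8% were higher.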

Other observations

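The genes past both thresholds and lower at 25 °C were unevenly spread over the chromosomes, a pattern chosen after the values were seen and given without a test. On the X chromosome 61 of 1747 tested genes were past both thresholds and lower (3.49%), and 79 of 11391 on the autosomes (0.694%), while for genes past both thresholds and higher the shares were 2.63% on X and 4.86% on the autosomes. Without the fold threshold the spread was the other way. On X 266 of 1747 genes fell, a smaller share than on any autosome (from 522 of 2497 on V to 714 of 2239 on I). The median log2 fold change of all X genes was 0.11, so the chromosome as a whole was not lower. The X-linked genes past both thresholds and lower included *sex-1*, a nuclear receptor that counts X chromosomes, with 2.94, 3.58, 3.86 and 4.11 CPM at 25 °C, against 8.08, 11.8, 11.3 and 7.42 CPM at 20 °C (-1.42 ± 0.19), besides *T22B7.7*, *dhs-26*, *fkh-3* and *fbxa-170*. Of the 61, 57 were tested in the mutants and 52 of these had a negative log2 fold change there, with a median of -0.55. The count on X was between 43 and 67 over the alternatives that kept the filter and the fold threshold of the N2 fit, glmTreat aside. With glmTreat, which tests whether a change exceeds 2-fold, 4 genes on X were lower, of 12 lower in all.

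Change and transcript length moved together. Over eighths of the genes by exon length, the median log2 fold change was 0.23 in the shortest and -0.14 in the longest, and with an offset for length it was 0.0093 and -0.042. With that offset 480 genes were past both thresholds and higher and 179 lower. Among named genes it removed the calls of *blmp-1*, *col-19*, *ech-9*, *gst-22*, *his-14*, *hsf-1*, *hsp-12.2*, *nhr-23*, *perm-2*, *rrf-3* and *tnt-4* (edgeR FDR between 0.053 and 0.30). *chn-1* newly passed (edgeR FDR = 0.012). The part of length in each result was not tested in any other way.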
